A study of Mus musculus with 58 samples.

Results

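The 40 genes described here encode proteins of the Fanconi anemia pathway and of homologous recombination, and they were taken by symbol from the 55376 genes in each RNA count file of mouse hematopoietic stem cells (HSCs). All 40 symbols were found. They were split into 20 genes whose transcripts are usually linked to DNA replication and 20 usually held to be constitutive. The split was meant to set a change of the pathway as a whole apart from a change of its replication-linked members. It came from general knowledge of the cell cycle and was made with earlier results of these data known. A difference between the sets is therefore a description and no independent test.

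The HSCs came from bone marrow of male C57BL/6 mice and were sorted as LSK CD34- Flk2- CD150+ cells. Old mice of 24 to 26 months were fed ad lib (OAL, 4 libraries), were kept from a young age on 40% calorie restriction (CR; OCR, 4 libraries), or were returned from that diet to ad lib food for 4 weeks (OCRRF, 2 libraries). Young mice of 3 to 4 months were fed ad lib (YAL), had 1 month of CR that began with a week at 20% before 40% (YCR), or were refed for 4 weeks after it (YCRRF), with 4 libraries each. In the knockdown experiment, HSCs of aged mice were transduced with a lentiviral shRNA against Kdr marked by GFP (4 libraries), or with that shRNA and 1 of 2 mCherry-marked shRNAs against Bmpr1a (2 libraries for each Bmpr1a shRNA, pooled as the double knockdown), each beside its own scramble control (2 libraries). The transduced cells were transplanted into lethally irradiated young female CD45.1 recipients together with myeloid progenitors, and donor HSCs were sorted again as LSK CD48- CD150+ CD45.2+ cells, so these libraries hold cells that had passed through an irradiated host and another gate than the diet libraries.

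Homologous recombination copies the sequence of a broken DNA end from the sister chromatid, and it therefore works in the S and G2 phases. Ends are sensed by the MRE11, RAD50 and NBN complex and by the kinases ATM and ATR, are cut back to single strands that RPA covers, and are then paired with the sister chromatid in a step that needs BRCA2. The Fanconi anemia pathway removes crosslinks between DNA strands that block replication forks, by a core complex that attaches ubiquitin to FANCD2 and FANCI. Inherited loss of Fanconi anemia genes leads to bone marrow failure, since HSCs are sensitive to it.

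The diet libraries held 11102898 to 36579392 counts and the transplant libraries 35657999 to 44780217. Levels are given as CPM, read counts scaled to library size with TMM normalization. Olfactory and vomeronasal receptor genes, which HSCs are not known to use, served as a measure of background, and their summed level was 530 to 752 CPM in OAL, 561 to 1257 in OCR, 1161 to 1486 in OCRRF, 66.5 to 474 over the young libraries and 21.5 to 42.1 over the transplant libraries. No member lay under 3 times the background level per kilobase in OAL or OCR, while Bard1 did in OCRRF and Rad51c in YCRRF. The HSC markers were all detected, with a summed level of 4384 to 4948 CPM in OAL, 3762 to 4432 in OCR, 3874 to 3948 in OCRRF and 4295 to 5343 over the young libraries. The locus of 26 of the 40 members overlaps another annotated gene, and since the strand setting of the counting is not given, reads of such neighbours cannot be told apart.

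Promoters were looked at for 32 members matched in RefSeq's table for build GRCm38.p6, each from 250 bases before to 50 bases after a start site; Rad54b, Xrcc2, Exo1, Fancd2, Rbbp8, Rad51d, Rad50 and Nbn were not matched. The 7 printed here, 5′ to 3′ on the strand of the gene, belong to members with a large change in OCR, to the checkpoint kinase Chek2 and to Palb2, which carries PU.1 peaks. Capitals mark, on either strand, an E2F site (TTTCGCGC, TTTGGCGC, TTTCCCGC or TTTGCCGC), a CHR element, a CCAAT box or a PU.1 site, and no match overlaps another here. The CHR element was searched as TTTGAA, the more common of its known forms in genes of the cell cycle, and also as the form TTCGAA. The PU.1 site was searched as GAGGAAG, which fits the core that factors of its family bind, and also as the form GGGGAAG.
Rad51ap1, chr6:126939538-126939837, minus strand: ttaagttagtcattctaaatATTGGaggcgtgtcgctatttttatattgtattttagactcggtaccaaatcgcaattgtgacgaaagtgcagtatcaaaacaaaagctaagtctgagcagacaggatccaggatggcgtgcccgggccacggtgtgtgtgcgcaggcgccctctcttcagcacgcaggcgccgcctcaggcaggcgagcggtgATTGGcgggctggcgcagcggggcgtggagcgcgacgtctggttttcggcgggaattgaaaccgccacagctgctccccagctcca
Brca1, chr11:101551906-101552205, minus strand: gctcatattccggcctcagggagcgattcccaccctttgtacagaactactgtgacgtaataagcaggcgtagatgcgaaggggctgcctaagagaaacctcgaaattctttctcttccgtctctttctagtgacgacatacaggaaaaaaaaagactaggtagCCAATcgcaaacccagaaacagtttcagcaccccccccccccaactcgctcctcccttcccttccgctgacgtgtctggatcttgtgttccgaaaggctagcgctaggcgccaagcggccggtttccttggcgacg
Brip1, chr11:86201144-86201443, minus strand: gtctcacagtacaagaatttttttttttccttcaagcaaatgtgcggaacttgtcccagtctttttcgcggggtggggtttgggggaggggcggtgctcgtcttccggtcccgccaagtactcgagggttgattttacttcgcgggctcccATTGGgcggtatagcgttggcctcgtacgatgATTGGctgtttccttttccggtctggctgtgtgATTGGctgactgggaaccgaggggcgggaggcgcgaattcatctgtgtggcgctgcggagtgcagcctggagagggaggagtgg
Chek1, chr9:36726609-36726908, minus strand: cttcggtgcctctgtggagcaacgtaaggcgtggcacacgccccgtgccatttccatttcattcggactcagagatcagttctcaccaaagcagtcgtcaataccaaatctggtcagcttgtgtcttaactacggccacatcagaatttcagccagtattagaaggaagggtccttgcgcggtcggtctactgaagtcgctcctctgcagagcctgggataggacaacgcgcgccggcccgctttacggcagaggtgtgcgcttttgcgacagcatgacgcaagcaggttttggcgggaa
Rad51c, chr11:87404457-87404756, minus strand: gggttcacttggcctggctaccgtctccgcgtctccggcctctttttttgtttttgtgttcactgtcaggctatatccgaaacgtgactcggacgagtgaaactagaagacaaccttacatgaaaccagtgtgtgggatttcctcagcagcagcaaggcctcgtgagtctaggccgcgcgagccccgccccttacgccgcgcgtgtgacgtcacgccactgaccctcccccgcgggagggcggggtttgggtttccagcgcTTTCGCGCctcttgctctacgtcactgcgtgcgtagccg
Chek2, chr5:110839733-110840032, plus strand: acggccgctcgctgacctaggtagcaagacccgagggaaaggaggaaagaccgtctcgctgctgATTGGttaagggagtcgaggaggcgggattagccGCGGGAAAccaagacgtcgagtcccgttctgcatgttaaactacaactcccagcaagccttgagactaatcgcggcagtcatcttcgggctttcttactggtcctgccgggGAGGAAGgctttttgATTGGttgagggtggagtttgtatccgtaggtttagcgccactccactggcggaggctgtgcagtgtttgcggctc
Palb2, chr7:122132897-122133196, minus strand: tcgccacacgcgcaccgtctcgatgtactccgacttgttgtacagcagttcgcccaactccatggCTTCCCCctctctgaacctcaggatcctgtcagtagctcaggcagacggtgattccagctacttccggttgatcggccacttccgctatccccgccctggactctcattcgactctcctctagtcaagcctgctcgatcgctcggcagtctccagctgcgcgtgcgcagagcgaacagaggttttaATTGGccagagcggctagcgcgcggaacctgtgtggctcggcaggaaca

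The E2F letters stood in 2 of 15 matched replication-linked members (Bard1 and Brca2) and in 3 of 17 constitutive ones (Chek2, Fancg and Rad51c), against 2.61% of all genes in the table. A CHR element was found in 2 of 15 (Bard1 and Eme1) and 2 of 17 (Atr and Rad51b), against 21.7% of all genes. The CCAAT box was more common, in 10 of 15 and 12 of 17, against 41.1%. The PU.1 letters occurred in 4 of 15 and 3 of 17, against 24.5%. Brip1 held 3 CCAAT boxes, which began at -99, -67 and -34 from its start, and Chek1 held none of these exact letters. Other forms of these sites, E2F sites among them, were not searched, so a promoter without a match may still hold one. Rad51c had an E2F site in the promoter printed here, from 11 to 18, and another in its second listed promoter.

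Per kilobase of exon, the members covered a wide range in OAL, from 0.416 CPM per kb for Bard1 to 26.9 for Rpa3. The median level per kilobase was 2.08 in the replication-linked and 8.47 in the constitutive members of OAL, and 3.44 and 8.11 in OCR. The 3 subunits of RPA, the protein that covers single-stranded DNA, included the highest members of both kinds, Rpa2 (19.3 CPM per kb in OAL) and Rpa3.

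The first comparison asked what lifelong CR does to these genes in old HSCs. Many of the replication-linked repair genes were higher in OCR than in OAL HSCs: Rad51ap1, a cofactor of strand pairing, by 3.11-fold, the helicase Brip1 by 2.53-fold, Brca1 by 2.50-fold and the checkpoint kinase Chek1 by 2.23-fold. Of the 40 members, 16 were called higher and 0 lower, where called means a Benjamini-Hochberg adjusted p under 0.05 over all genes in edgeR's quasi-likelihood test and a fold change above 1.2. Among the 27150 genes tested, 2.54% were called higher and 3.03% lower. The 16 comprised 14 of the 20 replication-linked and 2 of the 20 constitutive members. At an unadjusted p under 0.05 with the same fold the count was 26 higher and 0 lower, against 6.18% and 6.29% of all genes, and 36 of 40 had a positive log2 fold change. The median log2 fold change was 0.60 in the replication-linked members, 0.18 in the constitutive ones and 0.02 over all genes tested. With scaling factors taken from genes of at least 5 CPM, 56.2% of all calls were higher, against 45.6% with the scaling used here.

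**Figure D1:**
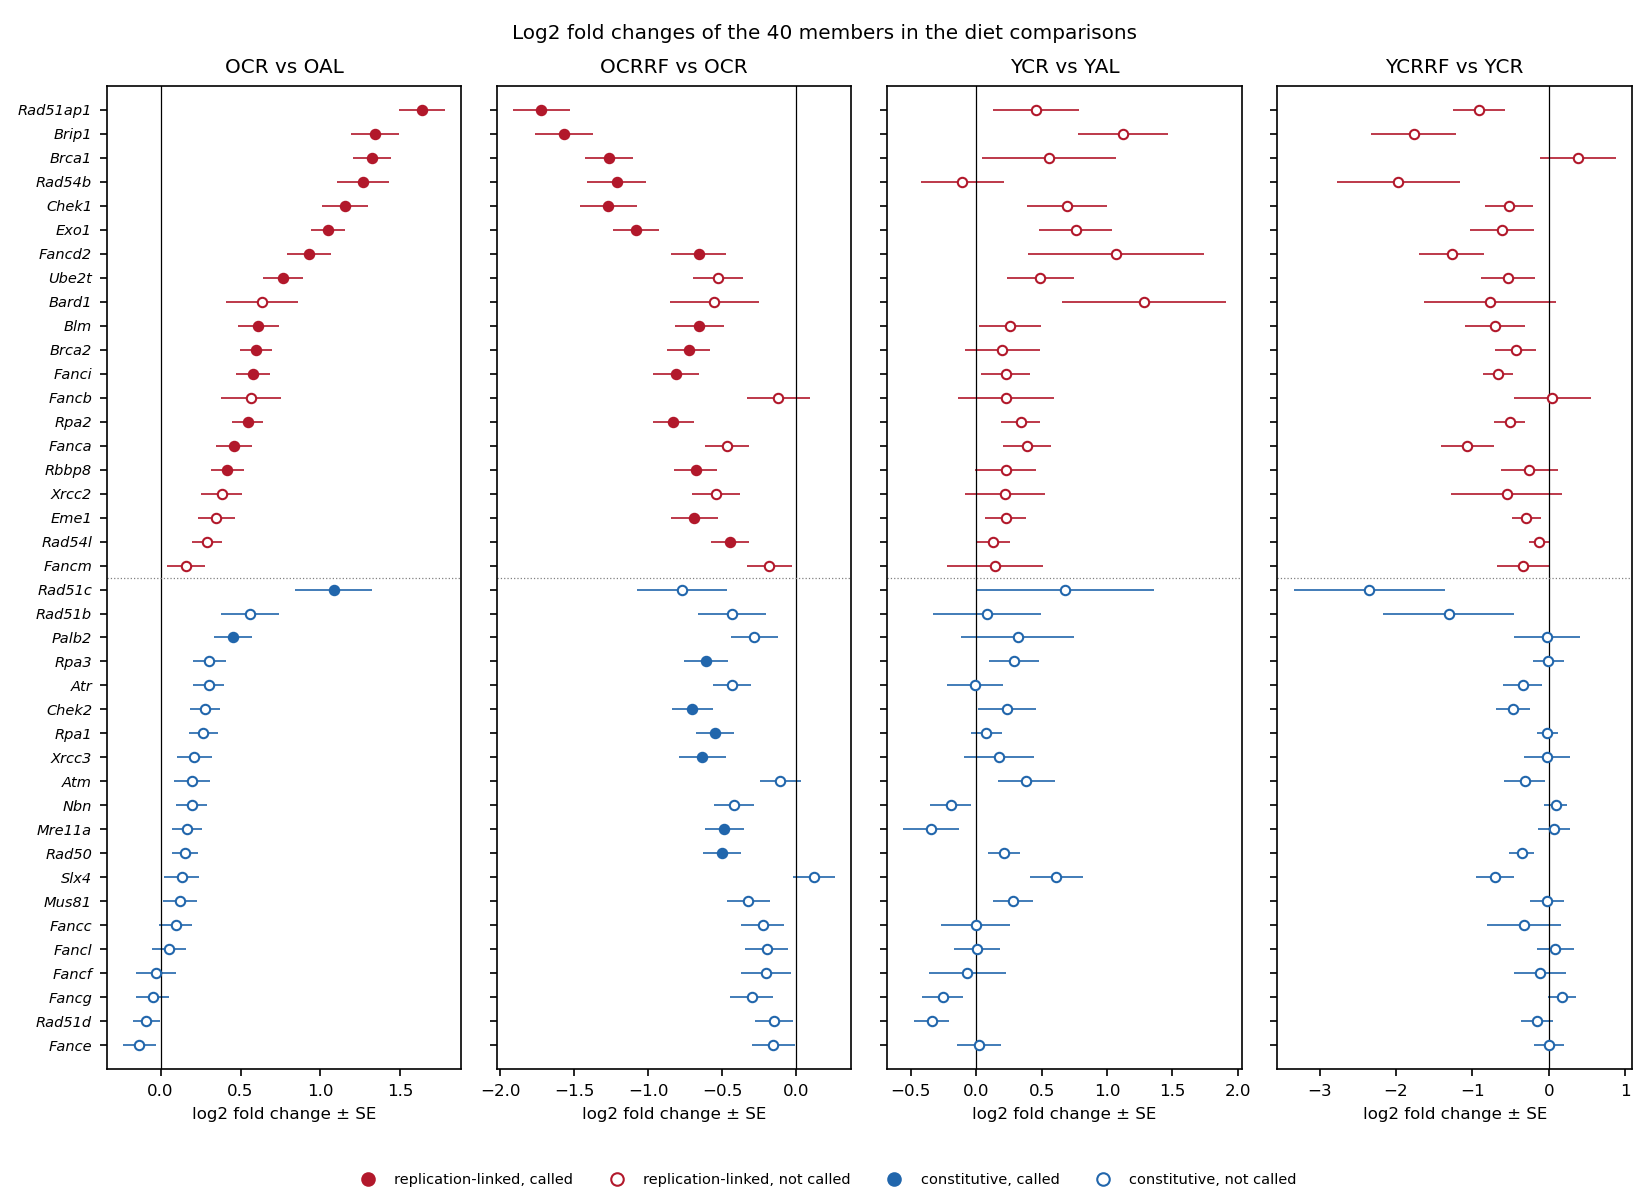
Log2 fold change with its standard error (x axis) of each of the 40 members (y axis) in 4 diet comparisons, with replication-linked members in red above the dotted line, constitutive members in blue below it, and called members as filled points. In OCR against OAL 16 points are filled and lie to the right of 0, in OCRRF against OCR 20 are filled and lie to the left, and in both young comparisons none is filled.

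Among the strand pairing cofactors and helicases, which help strands pair and take joined molecules apart, 3 of 4 rose. Rad51ap1 stood at 7.27, 7.61, 7.96 and 5.87 CPM in the OAL libraries and at 25.9, 25.2, 17.4 and 19.7 in OCR. Every OCR library lay above every OAL library, and the log2 fold change was 1.64 with an SE of 0.15 (adjusted p = 7.26e-09 in edgeR, as for all adjusted p given here unless DESeq2 is named). Rad54b, a strand exchange motor protein, had 5.55, 3.36, 5.01 and 4.66 CPM in OAL and 11.2, 10.3, 10.6 and 12.1 in OCR. The groups were again apart, by 1.27 ± 0.16 (SE) on the log2 scale (adjusted p = 3.51e-06). The helicase Blm rose by 0.61 ± 0.13 (adjusted p = 0.00205). Rad54l, the relative of Rad54b with a far higher count, was not called, at 74.1, 69.4, 65.4 and 59.7 CPM in OAL and 88.1, 89.7, 72.0 and 74.9 in OCR. Its ranges overlapped between the groups (log2 fold change 0.29 ± 0.09, adjusted p = 0.0683).

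Of the BRCA proteins and their partners, 4 of 5 rose. Brca1, the ubiquitin ligase subunit that directs ends to recombination, was measured at 11.2, 11.5, 10.8 and 8.95 CPM in OAL and at 25.1, 29.4, 24.8 and 25.6 in OCR. These groups lay well apart, with a log2 fold change of 1.32 ± 0.12 (adjusted p = 9.59e-09). Brip1, a helicase that binds BRCA1, had 7.10, 7.48, 7.90 and 6.06 CPM in OAL and 14.7, 23.3, 16.6 and 16.8 in OCR. The lowest OCR library was still above all OAL libraries (1.34 ± 0.15, adjusted p = 2.93e-07). Brca2, which acts at the resected ends, rose by 0.60 ± 0.10, and Palb2, which bridges BRCA1 and BRCA2 and was counted as constitutive, rose by 0.45 ± 0.12 (adjusted p = 0.000171 and 0.0215). Bard1, the partner of BRCA1 in the ligase, had the lowest level per kilobase of all members and was not called (0.63 ± 0.23, adjusted p = 0.114).

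Both members of the Fanconi ID complex, the substrate of the pathway, rose: Fancd2 by 0.93 ± 0.14 (adjusted p = 3.65e-05) and Fanci by 0.58 ± 0.11 (adjusted p = 0.000694). Of the 9 genes of the core complex with its ubiquitin-conjugating enzyme, only Fanca and the enzyme Ube2t were called, at 0.46 ± 0.11 and 0.77 ± 0.13 (adjusted p = 0.0104 and 0.000134). The median log2 fold change of these 9 was 0.09. Among its uncalled members were Fancl, the ligase subunit of the complex (0.05 ± 0.11), Fancb (0.56 ± 0.19, adjusted p = 0.0812), and Fance, Fancf and Fancg, whose estimates were below 0 at -0.13, -0.03 and -0.05.

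Of the damage kinases and the end sensor, 1 of 7 rose. That was Chek1, the kinase that restrains the cell cycle when replication stalls, at 11.6, 8.40, 11.8 and 10.4 CPM in OAL and 28.1, 26.3, 19.2 and 19.4 in OCR. Each OCR library was above each OAL library (1.15 ± 0.14, adjusted p = 1.79e-06). Chek2, which acts below ATM at double-strand breaks, stood at 36.4, 40.4, 37.8 and 34.1 CPM in OAL and 49.6, 43.9, 39.5 and 45.1 in OCR. The highest OAL library exceeded the lowest OCR library, and Chek2 was not called (0.28 ± 0.10, adjusted p = 0.1001). The kinase Atr had 78.2, 80.4, 68.5 and 66.3 CPM in OAL and 75.8, 98.1, 83.2 and 99.7 in OCR, and Rad50 had 78.3, 82.3, 78.8 and 77.4 in OAL and 94.4, 93.5, 80.0 and 80.3 in OCR. Both overlapped between the diets, with log2 fold changes of 0.30 ± 0.10 (adjusted p = 0.0700) and 0.15 ± 0.08 (adjusted p = 0.395).

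In the other roles, 2 of 5 genes of nucleases and end resection rose, the exonuclease Exo1 by 1.05 ± 0.11 (adjusted p = 7.32e-08) and the resection factor Rbbp8 by 0.42 ± 0.10 (adjusted p = 0.0119). The structure-selective nuclease genes Slx4, Mus81 and Eme1 did not pass the test. Of the RPA subunits, Rpa2 rose by 0.55 ± 0.10 (adjusted p = 0.000321). Rpa1, the large subunit, had 127, 122, 129 and 114 CPM in OAL and 137, 175, 134 and 138 in OCR, which did not overlap, yet it was not called (0.27 ± 0.09, adjusted p = 0.0841). Of the 5 genes Rad51b, Rad51c, Rad51d, Xrcc2 and Xrcc3, whose proteins form complexes in recombination, Rad51c was called (1.08 ± 0.24, adjusted p = 0.00443), at 2.39, 1.49, 2.60 and 2.22 CPM in OAL and 6.78, 3.80, 3.33 and 4.32 in OCR. All OCR libraries were above the OAL ones, at a level near the lowest of any member. Rad51d was below 0 at -0.09 ± 0.09.

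**Figure D2:**
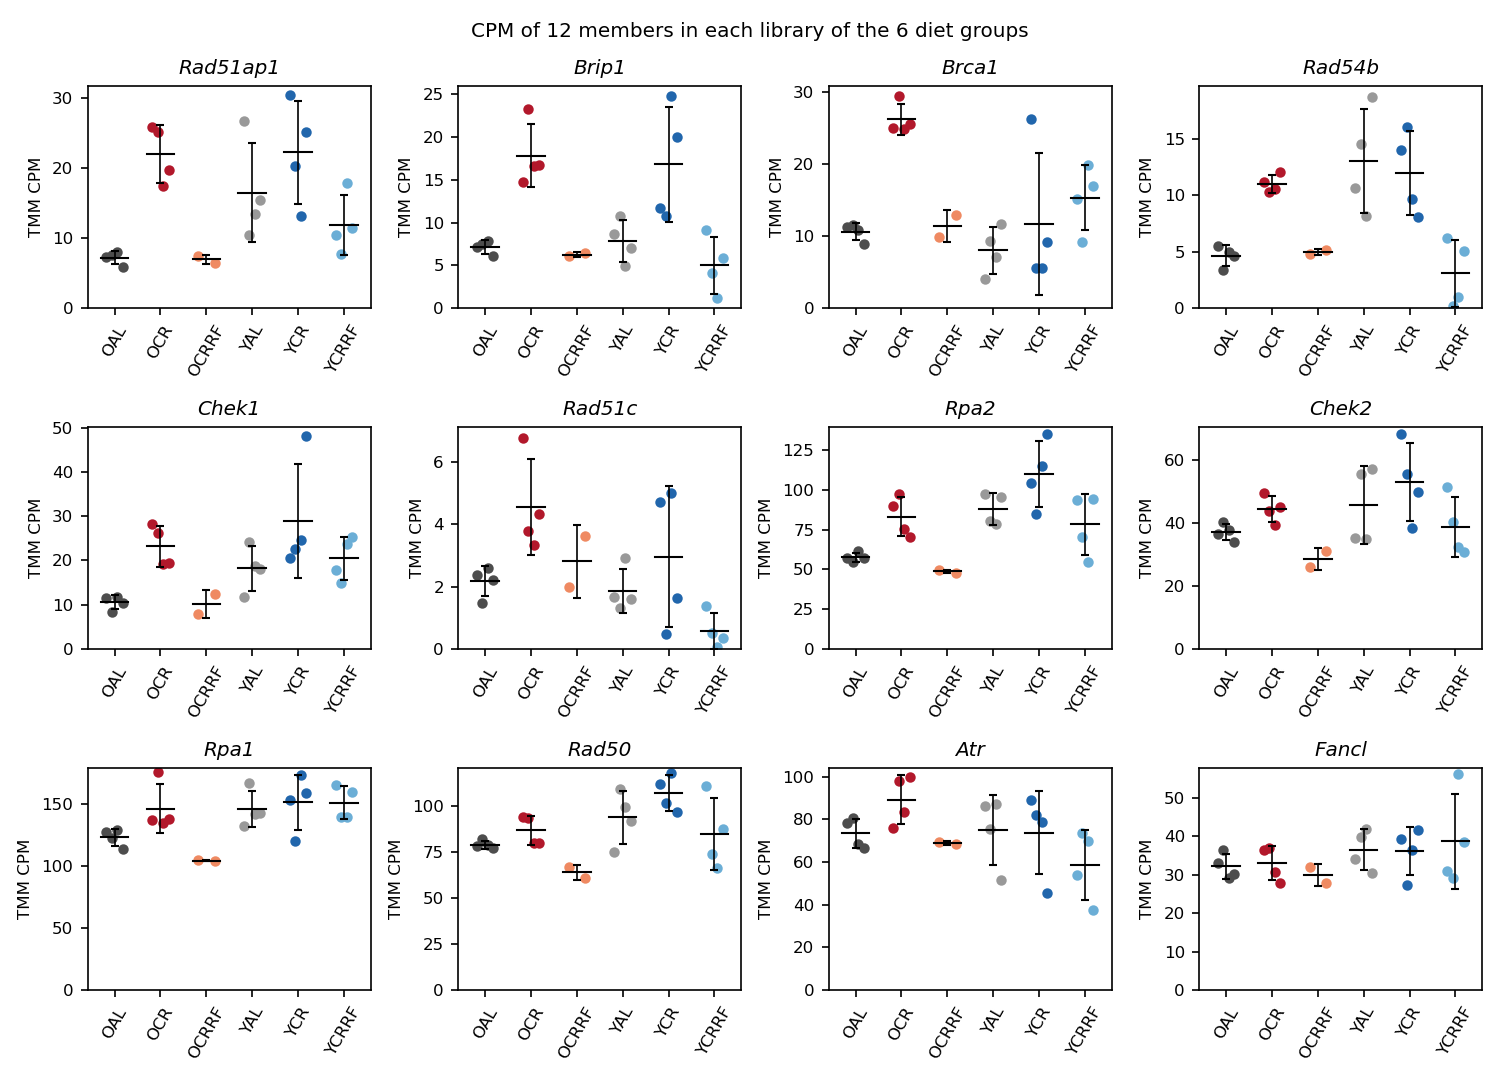
CPM (y axis, from 0) of 12 members in each library of the 6 diet groups (x axis), with points for libraries, a line for the mean and a bar for the SD. Rad51ap1, Brip1, Brca1, Rad54b, Chek1 and Rad51c show every OCR point above every OAL point, while Fancl, Atr, Rad50 and Chek2 overlap.

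In the fit on these 8 libraries, 13 of the 16 called members stayed called without any single library, the exceptions being Palb2, Rad51c and Rbbp8, and the count ranged from 14 to 20. In 1 fit of all 6 diet groups, 2 members were called, Rad51ap1 and Chek1, against 0.596% of 35587 genes.

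Other lists of genes were read beside the members in the same comparison. Of 41 further Fanconi anemia and recombination genes, 14 rose and 0 fell, with a median log2 fold change of 0.14. The 3 largest changes were those of Clspn, an adaptor for CHEK1 activation (1.49 ± 0.15, adjusted p = 6.36e-08), Fignl1, an ATPase that acts in recombination (1.42 ± 0.12, adjusted p = 2.40e-09), and Rmi2, a partner of BLM (1.15 ± 0.21, adjusted p = 0.000364). End joining, which seals breaks without a template, had 1 of 10 genes higher, the kinase Prkdc (0.39 ± 0.10, adjusted p = 0.0119), and a median of 0.02. Of 20 p53 target genes, Btg2 rose (0.67 ± 0.17, adjusted p = 0.0117), and Plk2 (-0.71 ± 0.12, adjusted p = 0.000259) and Perp (-0.49 ± 0.13, adjusted p = 0.0199) fell, with a median of 0.01. None of the 40 members is in these lists.

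Cell cycle genes moved in the same comparison. Of 20 replication genes such as Mcm2 and Pcna, 19 rose with a median log2 fold change of 0.85, and all 18 mitosis genes such as Mki67 and Top2a rose with a median of 1.67. The summed level of the replication genes was 1450 to 1630 CPM in OAL and 2161 to 3001 in OCR, and that of the mitosis genes 263 to 310.1 and 707 to 999. Their part in the members' result was not tested, and in bulk libraries more cells in cycle cannot be told apart from more RNA per cell. The members' median of 0.60 for the replication-linked genes lay under that of the replication genes.

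The summed markers of each cell type overlapped between the diets. Of 10 HSC markers 5 were called lower and 0 higher in OCR, and of 8 erythroid markers 1 was called higher and 3 lower, with sums of 46.7 to 236 CPM in OAL and 52.5 to 82.9 in OCR. Of 8 neutrophil and granulocyte progenitor markers 1, Prtn3, was called lower and 0 higher, with sums of 248 to 373 and 217 to 318. Yet 7 of the 8 had a positive log2 fold change, with a median of 0.55. At an unadjusted p under 0.05 with a fold change above 1.2, 3 were higher and 1 lower. None of the B cell (42.2 to 48.2 and 40.4 to 49.5 CPM), T cell (2.57 to 3.74 and 3.19 to 5.58), megakaryocyte (232 to 256 and 238 to 338) and macrophage markers (10.8 to 30.4 and 16.1 to 17.9) was called, and no marker was at 0 in either group. The part of these cells in the members' result was not tested.

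The next comparison asked whether refeeding old CR mice changes these genes. After 4 weeks of refeeding, repair genes of several roles were lower than in OCR: Rad51ap1 by 3.30-fold, Brip1 by 2.97-fold, Chek1 by 2.41-fold and Brca1 by 2.40-fold. Of the 40 members 20 were called lower and 0 higher, against 2.71% of the 32577 genes called lower and 0.694% called higher. They comprised 14 of 20 replication-linked and 6 of 20 constitutive members (Chek2, Rpa1, Rpa3, Xrcc3, Rad50 and Mre11a). Under the unadjusted rule 28 were lower and 0 higher, against 8.99% and 7.43% of all genes. The median log2 fold change was -0.68 in the replication-linked and -0.37 in the constitutive members, against 0.11 over all genes and -0.14 over genes above 5 CPM. With the scaling from genes of at least 5 CPM, 37.2% of all calls were higher, against 20.4%. OCR is shared with the comparison above, so the same OCR libraries enter both.

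Rad51ap1 had 7.42 and 6.47 CPM in OCRRF, Brip1 had 6.06 and 6.47, Brca1 had 9.86 and 13.0, and Chek1 had 7.92 and 12.3. For each of these genes both OCRRF libraries lay below all 4 OCR libraries, with log2 fold changes of -1.72 ± 0.19, -1.57 ± 0.20, -1.26 ± 0.16 and -1.27 ± 0.19 (adjusted p = 8.51e-08, 7.94e-07, 1.43e-06 and 2.32e-05). Exo1 had 13.8 and 17.0 CPM in OCRRF against 32.3, 34.4, 29.3 and 28.6 in OCR, and Rpa2 had 49.5 and 48.1 against 90.0, 97.4, 75.2 and 70.5. These also did not overlap (-1.08 ± 0.15, adjusted p = 9.09e-06, and -0.83 ± 0.14, adjusted p = 0.000102).

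By role, all 3 RPA subunits, all 4 strand pairing cofactors and helicases and both members of the ID complex were called lower. Of the nucleases and resection genes 3 of 5 were lower, of the BRCA group 3 of 5, of the damage kinases and the end sensor 4 of 7, and of Rad51b, Rad51c, Rad51d, Xrcc2 and Xrcc3 1 of 5. The core complex stood apart with 0 of 9 called by edgeR, 3 of them at an unadjusted p under 0.05. Of the other Fanconi anemia and recombination genes 13 of 41 fell, of end joining 1 of 10 (Prkdc) and of the p53 targets 1 of 20 (Ccng1), while 20 of 20 replication genes and 18 of 18 mitosis genes fell. OCRRF rests on 2 libraries: without either of them 10 members were called, without OCR replicate 2 13 were, and 8 of the 20 stayed called without any single library. In 1 fit of all 6 diet groups edgeR called none of them, against 0.180% of 35587 genes. The background sum was 1161 to 1486 CPM in OCRRF and 561 to 1257 in OCR, 2 of 7 B cell markers were called higher (51.7 to 52.4 CPM summed, against 40.4 to 49.5), 3 of 4 tested megakaryocyte markers lower (208 to 208.6 against 238 to 338), and 3 of 8 erythroid markers higher and 1 lower. The part of these in the members' result was not tested.

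Set directly against OAL, the refed old HSCs differed in few members by edgeR. Of the 40 members 2 were called lower and 0 higher, against 2.48% and 1.66% of the 31816 genes. Under the unadjusted rule 7 members were lower, 6 of them constitutive, and 1 higher, against 1937 and 4468 of all genes. Of 20 replication genes 5 were called lower, and of 18 mitosis genes 0. Of 10 HSC markers 3 and of 4 tested megakaryocyte markers 1 were called lower, while the neutrophil marker Mpo and the B cell marker Pax5 were called higher. Their part in the members' result was not tested. DESeq2 called 13 members lower, and of 51946 genes it called 3819 lower and 758 higher. Rad50, a subunit of the end sensor, had 67.03 and 61.2 CPM in OCRRF, below all 4 OAL libraries (-0.32 ± 0.08, adjusted p = 0.0366). Chek2 had 26.2 and 31.0 CPM, also below all OAL values (-0.39 ± 0.11, adjusted p = 0.0471). Neither stayed called when any 1 of the 6 libraries was left out, and the background sum of OCRRF was above that of all OAL libraries, whose part in this result was not tested. With scaling factors from genes of at least 5 CPM, 2.54% of all genes were called. The calls of Rad50 and Chek2 were then lost, Slx4 was called higher, and the median of all genes moved from 0.12 to 0.26. The members' median was -0.11, against 0.12 over all genes and -0.14 over genes above 5 CPM, and that scaling turned it to 0.03, with the replication-linked members moving from -0.04 to 0.11. Rad51ap1 and, at 4.79 and 5.13 CPM, Rad54b of OCRRF lay within the OAL range.

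In young HSCs the same kind of question was asked of a short CR. No member was called in YCR against YAL by edgeR, where 0.257% of the 18680 genes were, and 6 had an unadjusted p under 0.05. DESeq2 called 1, Brip1, and 1.22% of 43189 genes. Under the unadjusted rule 5 members were higher and 1 lower, against 3.64% and 4.72% of all genes: Brip1, Exo1, Rpa2, Chek1 and the nuclease scaffold Slx4 were higher and Rad51d lower. Brip1 had 8.63, 10.8, 4.93 and 7.08 CPM in YAL and 11.7, 10.8, 24.8 and 20.0 in YCR. The YCR libraries lay above those of YAL, the closest by less than 1 CPM (1.123 ± 0.34, adjusted p = 0.279). The young libraries spread widely. Brca1, for instance, had 4.02, 9.30, 7.07 and 11.7 CPM in YAL and 26.2, 5.62, 5.58 and 9.21 in YCR, which overlap. The median log2 fold change was 0.30 in the replication-linked and 0.08 in the constitutive members, against 0.01 over all genes, and 32 of 40 were positive. Of the replication genes 0 of 20 and of the mitosis genes 1 of 18 were called higher, and 7 and 8 were higher at an unadjusted p under 0.05.

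Whether the response to CR differed between old and young HSCs was tested as the old effect minus the young effect in 1 fit of the 16 libraries. The old CR was lifelong and the young CR lasted 1 month, so age and regimen cannot be told apart. The source of the mice also differed with age, and the background sum was higher in every old library than in every young one. No member was called by edgeR, where 0.0424% of 28328 genes were. DESeq2 called 1, Rad54b, and 0.458% of 52176 genes. Under the unadjusted rule the difference was positive for 4 members and negative for 0, against 4.05% and 4.89% of all genes. These were Rad54b (1.38 ± 0.38, adjusted p = 0.274), Rad51ap1 (1.18 ± 0.38, adjusted p = 0.351), Mre11a (0.52 ± 0.23, adjusted p = 0.508) and Nbn (0.40 ± 0.18, adjusted p = 0.518). The estimates for Mre11a had opposite signs, 0.17 ± 0.09 in old and -0.35 ± 0.21 in young HSCs, and so did those for Nbn, 0.20 ± 0.10 and -0.20 ± 0.15, none of which was called. Rad54b had 10.7, 14.5, 8.17 and 18.8 CPM in YAL and 14.0, 16.0, 9.72 and 8.07 in YCR, which overlap. The median difference was 0.26 in the replication-linked and 0.08 in the constitutive members.

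Refeeding after the short CR gave no called member either. In YCRRF against YCR 0.0102% of 19535 genes were called by edgeR and 0 members. DESeq2 called 2 members, Fanci and Brip1, and 0.872% of 43368 genes. Under the unadjusted rule 0 members were higher and 9 lower, against 3.86% and 3.28% of genes. They were Fanci, Brip1, Fanca, Fancd2, Rad51ap1, Rpa2 and Rad54b of the replication-linked and Slx4 and Rad51c of the constitutive members. Brip1 had 9.09, 4.06, 1.13 and 5.85 CPM in YCRRF, each below all YCR libraries (-1.77 ± 0.55, adjusted p = 0.431). Rad51c ran from 0.0707 to 1.38 CPM there, a few reads in the lowest library. The medians were -0.54 and -0.07. Under the same rule 17 of 20 replication genes and 9 of 18 mitosis genes were lower, 5 of 8 neutrophil and 4 of 10 HSC markers were higher, and 3 of 5 macrophage, 2 of 6 tested B cell, 2 of 4 tested megakaryocyte and 2 of 8 erythroid markers were lower. The neutrophil markers summed to 443 to 1711 CPM in YCRRF and 124 to 467 in YCR, and the macrophage markers to 18.9 to 43.1 and 35.5 to 53.2. Their part in the members' values was not tested. Against YAL, 0 members of YCRRF were called by edgeR and by DESeq2, where edgeR called 0% of 19334 genes and DESeq2 0.122% of 42481. Under the unadjusted rule 1 member was higher and 2 were lower, against 1.79% and 1.86% of genes. Brca1 was higher (0.94 ± 0.39) and Rad54b and Rad51d lower (-2.08 ± 0.81 and -0.50 ± 0.19), all with an adjusted p of 0.995. YCR and YAL are each shared between 2 of these comparisons.

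Age itself was compared between the ad lib groups. Repair genes were lower in OAL than in YAL, 11 members called lower and 0 higher, against 7.93% and 6.89% of the 23525 genes. The 11 were Rpa2, Rad54b, Exo1, Rad51ap1, Eme1, Fanca, Ube2t, Rad54l and Chek1 of the replication-linked and Nbn and Rad51d of the constitutive members. Rpa2 had 97.5, 80.4, 78.8 and 95.8 CPM in YAL and 57.2, 54.9, 61.8 and 57.0 in OAL. All YAL libraries were higher (-0.60 ± 0.10, adjusted p = 0.00443). Rad54b, with the values above, was lower by 2.78-fold (-1.47 ± 0.29, adjusted p = 0.00842), and Exo1 had 29.9, 26.1, 30.6 and 19.5 CPM in YAL and 14.9, 15.2, 16.1 and 14.8 in OAL (-0.79 ± 0.16, adjusted p = 0.00987). Neither overlapped between the ages. Rad51ap1 had 26.7, 10.4, 13.4 and 15.5 CPM in YAL, each above all OAL values (-1.18 ± 0.28, adjusted p = 0.0178). Nbn, the subunit that links the end sensor to ATM, had 54.5, 55.8, 83.3 and 66.7 CPM in YAL and 42.0, 48.2, 45.6 and 40.6 in OAL, and the nuclease subunit Eme1 had 30.6, 27.8, 29.4 and 25.4 in YAL and 18.9, 21.6, 18.9 and 21.9 in OAL. Again the old libraries were all lower (adjusted p = 0.0240 and 0.0294).

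The median log2 fold change with age was -0.44 in the replication-linked and -0.17 in the constitutive members, against 0.05 over all genes and -0.13 over genes above 5 CPM. Of the replication genes 16 of 20 and of the mitosis genes 5 of 18 fell. Of the further Fanconi anemia and recombination genes 12 of 41 fell and Mdc1 rose. End joining had 3 of 10 genes lower (Xrcc5, Xrcc6 and Poll) and the p53 targets 3 of 20 (Bbc3, Sesn2 and Aen), with 0 higher in either. Since the background sum was higher in every OAL library than in every YAL library, age and library background cannot be told apart here. The old mice came from the NIA colony and the young ones from The Jackson Laboratory, so age and source cannot be told apart. Of 7 B cell markers 4 were called lower and 0 higher, with sums of 42.2 to 48.2 CPM in OAL against 82.7 to 160. Of 8 erythroid markers 3 were lower and 0 higher, and of 8 neutrophil markers 2 lower and 1 higher. Of 10 HSC markers 1 was lower, and of the tested T cell and megakaryocyte markers 1 each was higher. Their part in the members' result was not tested. Only 3 of the 11 members, Rpa2, Rad54b and Exo1, stayed called without any single library, and leaving out OAL replicates 1, 2, 3 or 4 left 3, 3, 5 and 3 calls. With scaling from genes of at least 5 CPM, 4 members were lower and Atm was higher, against 11.3% of all genes called. The median of all genes then moved from 0.05 to 0.16, and the medians of the replication-linked and constitutive members were -0.33 and -0.06.

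In mean CPM, OCR was the highest of the 3 old groups for 20 of 20 replication-linked and 15 of 20 constitutive members, and YCR was the highest of the 3 young groups for 17 and 10. These orders rest on means alone.

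The knockdowns asked whether loss of Kdr, or of Kdr and Bmpr1a, moves the same genes in transplanted old HSCs. The target checked the labels: Kdr, a receptor of VEGF, stood at 6.04 and 6.07 CPM with scramble and at 1.93, 2.21, 3.28 and 2.03 with the Kdr shRNA, apart in all libraries (2.56-fold lower, adjusted p = 0.247). In the double knockdown Kdr had 1.24, 0.556, 1.60 and 1.35 CPM against 3.98 and 4.63, and Bmpr1a, a BMP receptor, had 4.44, 0.657, 2.22 and 0.595 against 5.21 and 4.43. Bmpr1a in 1 knockdown library thus lay within its scramble range (2.44-fold lower, adjusted p = 0.602).

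**Figure D3:**
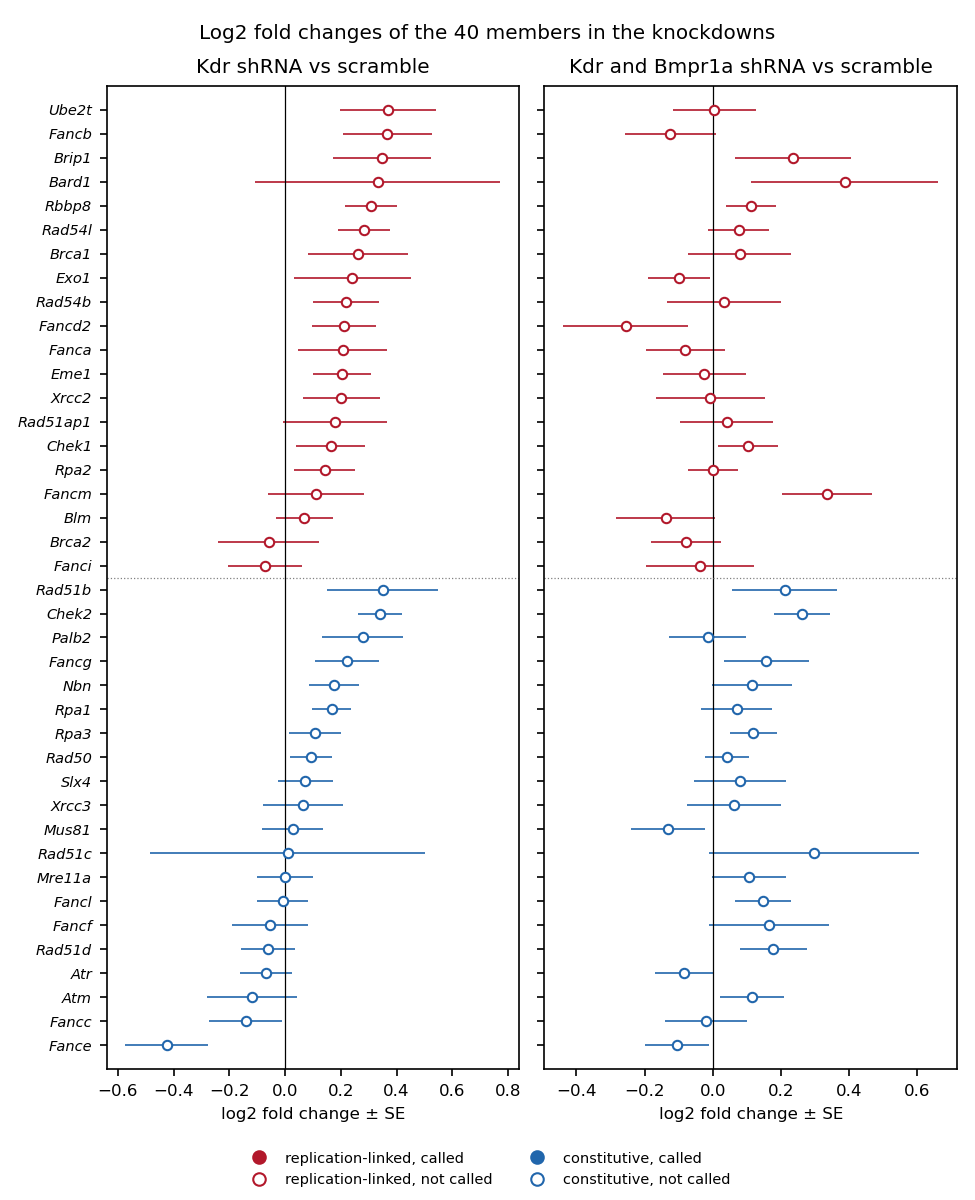
Log2 fold change with its standard error (x axis) of each of the 40 members (y axis) in the Kdr knockdown and in the Kdr and Bmpr1a double knockdown, each against its own scramble libraries, colored and filled as in the diet comparisons. No point is filled in either panel, and 31 of 40 lie above 0 in the Kdr knockdown.

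No member was called in the Kdr knockdown by edgeR, where 0.0149% of 20098 genes were. DESeq2 called 1, Chek2, and 0.836% of 31206 genes. Under the study's unadjusted rule for this comparison 4 members were higher and 1 lower, against 2.99% and 3.78% of genes. Chek2 had 56.4 and 54.7 CPM with scramble and 71.0, 73.7, 68.9 and 67.6 with the shRNA. Each knockdown library was above both scramble libraries, and the log2 fold change was 0.34 ± 0.08 (adjusted p = 0.304). The others were Rbbp8, at 62.1 and 51.7 CPM against 70.0, 68.8, 72.5 and 70.5 (0.31 ± 0.09), Rad54l, at 113 and 101 CPM against 127, 145, 119.9 and 128 (0.28 ± 0.09), and Fancb (0.37 ± 0.16). Fance, a core complex subunit, was lower, at 33.8 and 29.8 CPM with scramble against 26.2, 18.7, 26.1 and 23.7 (-0.42 ± 0.15, adjusted p = 0.472). The median log2 fold change was 0.21 in the replication-linked and 0.05 in the constitutive members. Among the mitosis genes 11 of 18 and among the replication genes 3 of 20 were higher at an unadjusted p under 0.05, and 6 of 10 HSC markers were lower, with sums of 2820 to 3218 CPM against 3427 to 3649. Of the B cell markers 3 of 6 tested were higher under that rule, with a median log2 fold change of 2.21 and sums of 44.3 to 71.9 CPM against 34.1 to 41.4 with scramble, where Pax5 was at 0. Of the neutrophil markers 3 of 8 were higher, with sums of 840.4 to 2913 CPM against 411 to 1930. Their part in the members' values was not tested.

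In the double knockdown 0 members were called by edgeR and by DESeq2, where edgeR called 0.00498% of 20072 genes and DESeq2 1.08% of 30742. Under the unadjusted rule 1 member was higher and 0 lower, against 2.82% and 3.88%: Fancm, the translocase of the core complex (0.33 ± 0.13, adjusted p = 0.464). Chek2 had 63.9 and 58.7 CPM with scramble and 66.6, 77.4, 75.1 and 74.7 in the double knockdown. All knockdown libraries were higher, with a fold change of 1.199, just under the threshold (0.26 ± 0.08, adjusted p = 0.376). The large OCR genes overlapped here, with Rad51ap1 at 48.9 and 45.7 CPM against 40.7, 53.3, 44.2 and 56.2, and Brca1 at 62.8 and 47.5 against 50.1, 67.8, 53.8 and 60.8. The medians were 0.00 and 0.11.

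Chromatin was looked at where libraries were at hand. An ATAC-seq peak of open chromatin lay within 500 bases of a listed start site for 39 of 40 members, all but Slx4, against 63.9% of 25126 genes. Those genes were not limited to ones expressed in HSCs, so the shares are not like for like. None of the 40 member peaks was called between OCRRF and OCR by edgeR or DESeq2, where 0.221% of 123372 peaks were by edgeR, and 6 had an unadjusted p under 0.05, against 11.7% of all peaks. The smallest adjusted p was that of Rbbp8 (log2 fold change 0.25, adjusted p = 0.112), while the peak of Brca2 had -0.32 (adjusted p = 0.250). The median over the member peaks was -0.01, against 0.02 over the promoter peaks of all genes.

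In OCR HSCs the active mark H3K4me3, as mean signal per base just after the start site, had a median of 24.8 over the members, against 9.22 over 25127 genes. The median percentile was 65.2 in the replication-linked and 73.1 in the constitutive members, with Atr highest at 41.6 and Slx4 lowest at 0.318, whose listed start lies 2092 bases from the gene model's start. The repressive mark H3K27me3 had a median of 0.214, against 0.330, and was highest at Rbbp8 (0.623). For both marks the genes set beside the members were again not limited to expressed ones. The OAL libraries of both marks were not analysed here, so these values describe OCR without a comparison of diets.

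Peaks of the transcription factor PU.1 with an edge within 1 kb of a start site were listed for 5 members in all. Palb2 had one in 5 of 6 libraries, OAL replicate 1 and both libraries of OCR and of OCRRF, at 6.53 to 9.80-fold enrichment, and its summits lay at -125 to -10 from the start, inside the promoter printed above. Its PU.1 letters stand at -185 to -179, and the start of Dctn5 lies within 1 kb. Rad54b had a peak in both OAL libraries and OCR replicate 1, at -91 to -63 from its start. Brca1 had one in OAL replicate 2 and both OCR libraries, at -827 to -739 from its start and near that of Nbr1, Rad51ap1 in OCR replicate 1, with its summit at -1056 from its start and near that of D6Wsu163e, and Chek2 in OCR replicate 2, at 37 from its start and near that of Hscb. Over all genes the share with such a peak was 2.91% and 2.65% in OAL, 5.17% and 3.55% in OCR and 2.44% and 2.01% in OCRRF. The labels name the source of the antibody for replicate 1 and not for replicate 2, and the replicates may differ in it, so the diets were not tested against each other.

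Lastly, the libraries of 1 diet were compared among themselves. Over 22 diet libraries with group means removed, the correlation of each member with the mean level of the 20 replication genes had a median Pearson r of 0.255 (Spearman rho 0.248) in the replication-linked and 0.114 (rho 0.177) in the constitutive members, against -0.0328 over all genes and 0.0436 over 12101 genes above 5 CPM. Rad54b had the highest r, 0.655, with a rho of 0.269 and an r of 0.347 without the 2 libraries farthest from the median of the replication genes, and Rad51d the lowest, -0.347. Without those libraries, YCRRF replicate 2 and OCRRF replicate 1, the medians were 0.205 and 0.194. These 2 libraries were picked before group means were removed. The OCRRF library lay only 0.0628 from its group mean on the log2 scale, so leaving it out says little. The points share depth and background within a library, the values are weak, and they are given as a description.

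**Figure D4:**
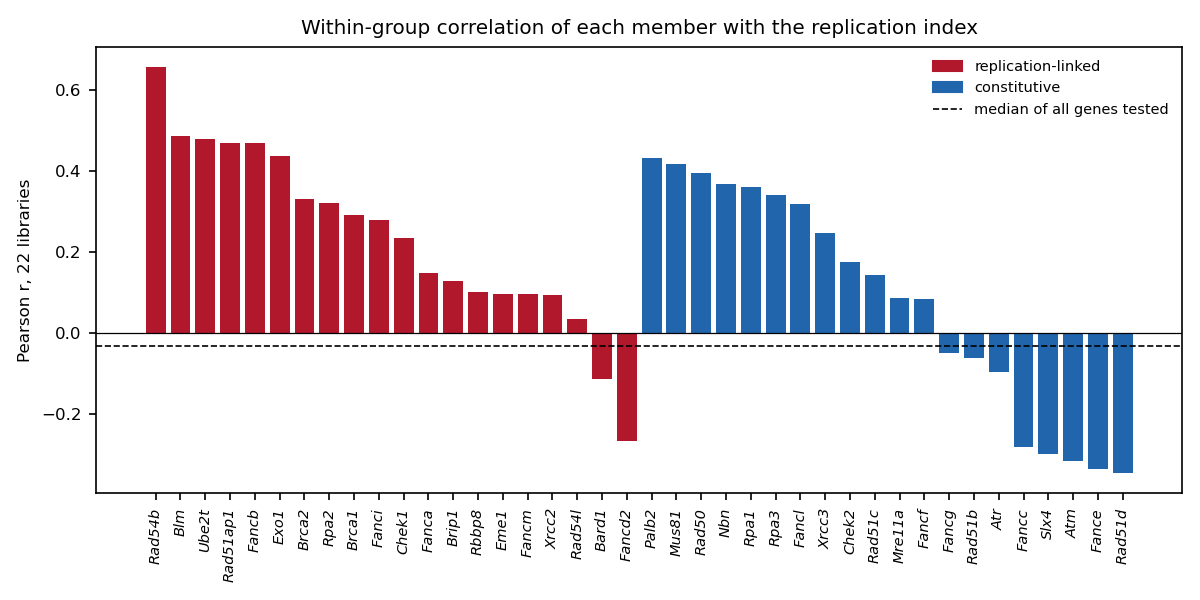
Pearson r over 22 diet libraries (y axis) between each member (x axis) and the mean log2 level of 20 replication genes after removal of group means, with replication-linked members in red, constitutive members in blue and the median of all genes as a dashed line. Rad54b stands highest at 0.655, and both kinds of member spread over positive and negative values.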

How the data were processed

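RNA-seq libraries of mouse HSCs were the main data. The authors trimmed reads with cutadapt, mapped them to mm10 with STAR and deposited featureCounts counts per gene (GENCODE M22). They also deposited counts of ATAC-seq reads in 131918 consensus peaks, histone signal per base at promoters, and MACS2 peaks of PU.1 with their fold enrichment (a ratio), score and -log10 p and q. Columns of no mapped sample numbered 0.

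Counts were filtered with filterByExpr, scaled with TMM and tested with edgeR 4.0.16 (glmQLFit, glmQLFTest) in R 4.3.3, each comparison on its own groups, with DESeq2 1.42.0 as an alternative. Diet and transplant libraries were scaled apart. The unadjusted rule was p under 0.05 with a fold change above 1.2. For ATAC-seq, called meant an adjusted p under 0.05 with a fold change over 1.5 at a mean level over 1.5 log2 CPM. Scripts were tested on simulated data. The labels do not tie libraries to single mice, so p-values measure the spread between libraries, which may be technical.

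The members, their split, the marker lists, the lists of further repair, end joining, p53 target, replication and mitosis genes, and the rule for named genes (the 6 largest called changes, genes the study named, and the 4 highest uncalled members) were chosen with earlier results of these data known. Samples with the same replicate number were not shown to be paired. The ATAC-seq and histone libraries of OAL were not analysed here.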

Additional observations from a re-analysis of the deposited data

Results flagged for a closer look

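In groups of 4 libraries, 1 library of 4 members lay far from the others. Brca1 was 29.4 CPM in OCR replicate 2, against 24.8 to 25.6 in the other OCR libraries. Chek1 was 48.1 CPM in YCR replicate 4, against 20.6 to 24.6. Rpa1 was 175 CPM in OCR replicate 2, against 134 to 138. Nbn was 63.5 CPM in replicate 1 of the first Bmpr1a shRNA, against 81.4 to 83.8 in the other double knockdown libraries. These are 4 of 105 groups over 15 members, where chance marks about 1 group in 20, or 5.2 of 105.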

How the results depend on the processing

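Counts of called members moved by more than 1.5 times as follows, except where a smaller move is named, and the cause was not tested. In 1 fit of all groups, OCR against OAL had 2 (from 16), OCRRF against OCR 0 (from 20), OCRRF against OAL 0 (from 2), YCRRF against YCR 3 (from 0) and OAL against YAL 6 (from 11). In the same order, that fit called 0.596%, 0.180%, 0%, 1.51% and 11.0% of all genes. With DESeq2 the counts were 13 for OCRRF against OAL, 1 for YCR against YAL, 2 for YCRRF against YCR, 1 for the Kdr knockdown and 1 for the old minus young response. In the same order, DESeq2 called 8.81%, 1.22%, 0.872%, 0.836% and 0.458% of all genes. With DESeq2 size factors OCRRF against OAL had 8, against 10.1% of all genes. Without a filter it had 5, YCR against YAL 1 and YCRRF against YCR 3, against 5.17%, 0.841% and 0.617% of all genes. With at least 10 counts in every library OCRRF against OAL had 1 and OAL against YAL 5, against 5.56% and 12.3% of all genes. With TMM from genes of at least 5 CPM they had 1 and 5, against 2.54% and 11.3% of all genes. That scaling moved the share of calls that were higher from 45.6% to 56.2% in OCR against OAL, 20.4% to 37.2% in OCRRF against OCR, 40.1% to 93.3% in OCRRF against OAL and 46.5% to 70.5% in OAL against YAL. Leaving out each library gave 14 to 20 for OCR against OAL, a smaller move. It gave 10 to 24 for OCRRF against OCR, 0 for OCRRF against OAL and 3 to 14 for OAL against YAL. With the background sum as a covariate, chosen after seeing the data, OCR against OAL had 24, against 6.29% of all genes. That is no more than 1.5 times the 16 of the main fit, so a smaller move. The members with a PU.1 peak, 5 in all, were 2 in each OAL library, 3 in OCR replicate 2 and 1 in each OCRRF library.

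Same-numbered libraries did not deviate together in every pair (correlations -0.233 to 0.152), so pairing by number was not shown. In a group of 2 libraries the deviations from the group mean mirror each other, so there the correlations cannot decide it. With the replicate block, OCR against OAL had 16 called members, OCRRF against OCR 27, OCRRF against OAL 6 and OAL against YAL 6. In the same order, 5.27%, 10.6%, 6.54% and 7.02% of all genes were called. In all, 154 values, which include median correlations and histone percentiles besides counts, were unchanged or stayed within the limit set for each kind. None of the 49 calls of single members turned its direction under the alternatives run on it, but 42 were lost in 1 fit of all groups and 14 with TMM from genes of at least 5 CPM. Over all genes that 1 fit called 115 higher and 97 lower in OCR against OAL (from 689 and 822). OCRRF and each scramble control hold 2 libraries.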
